A study of Mus musculus with 6 samples.

Results

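The insulin receptor, its IRS adaptors and the AKT kinases were read on liver arrays of offspring killed at the age of 32 weeks, together with the sister receptor Igf1r, the kinase Pdpk1 and the glucose transporter Slc2a4. These 8 genes were chosen by symbol, and each is read by its brightest probe set among those annotated to exactly 1 gene, the mean of the 6 arrays deciding which was brightest. All 8 were measured, by 9 such probe sets, among 22180 genes in all. The 3 CR-CD arrays held offspring of C57BL dams that were fed a diet low in chromium through pregnancy and lactation, and those offspring received the control diet from weaning. The 3 CD-CD arrays held offspring that, like their dams, had the control diet throughout. Both groups were male and were sampled after a fast. Neither the labels nor the methods say whether each array held RNA of a separate animal or litter, so the p-values measure only the spread between these arrays, which may be technical. Every value is a log2 signal as normalized by the authors.

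Insulin binds the receptor encoded by Insr, which phosphorylates the adaptors IRS1 and IRS2. The adaptors recruit PI3-kinase, whose lipid product brings AKT to the membrane, where PDPK1, the kinase also called PDK1, phosphorylates it. In mice AKT2 is known as the main AKT isoform of glucose metabolism and AKT1 for growth, while IRS2 in the liver is known to follow fasting and feeding. Igf1r, the receptor of insulin-like growth factor 1, is known to be low in adult hepatocytes, and GLUT4, the protein of Slc2a4, is known from muscle and fat rather than from liver.

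The start regions of the IRS and AKT genes are shown because 1 gene of each pair was lower in CR-CD and the other was not called. RefSeq promoter windows (build GRCm38.p6) were matched for 6 of the 8 genes, Insr and Slc2a4 being the others. The 250 bases upstream of an annotated start are printed 5′ to 3′ on the strand of the gene. Capitals mark, on either strand, the Sp1 box GGGCGG, the forkhead core TGTTTAC, the insulin response element core CAAAACA, which reads TGTTTTG on the other strand, the CRE TGACGTCA and the E-box CACGTG. The windows are chr8:11008930-11009179 (minus strand) for Irs2, chr1:82291440-82291689 (minus strand) for Irs1, chr12:112674885-112675134 and chr12:112674277-112674526 (both minus strand) for 2 starts of Akt1, and chr7:27591302-27591551 (plus strand) for the first of 4 starts of Akt2.
Irs2: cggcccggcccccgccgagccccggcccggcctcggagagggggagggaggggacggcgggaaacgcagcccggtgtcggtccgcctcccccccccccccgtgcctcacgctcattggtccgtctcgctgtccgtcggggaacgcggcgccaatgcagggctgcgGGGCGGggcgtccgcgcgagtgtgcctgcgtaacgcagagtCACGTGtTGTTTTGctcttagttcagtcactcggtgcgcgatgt
Irs1: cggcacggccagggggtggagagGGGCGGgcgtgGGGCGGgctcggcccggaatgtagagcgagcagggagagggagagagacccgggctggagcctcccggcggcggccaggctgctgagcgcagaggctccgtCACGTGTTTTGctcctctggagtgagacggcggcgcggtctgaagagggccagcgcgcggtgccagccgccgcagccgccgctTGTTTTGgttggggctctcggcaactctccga
Akt1, start 1: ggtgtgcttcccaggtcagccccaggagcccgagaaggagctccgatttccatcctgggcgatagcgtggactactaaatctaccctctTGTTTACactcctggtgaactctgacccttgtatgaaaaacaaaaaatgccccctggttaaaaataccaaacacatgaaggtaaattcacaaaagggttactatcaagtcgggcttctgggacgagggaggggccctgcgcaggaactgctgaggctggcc
Akt1, start 2: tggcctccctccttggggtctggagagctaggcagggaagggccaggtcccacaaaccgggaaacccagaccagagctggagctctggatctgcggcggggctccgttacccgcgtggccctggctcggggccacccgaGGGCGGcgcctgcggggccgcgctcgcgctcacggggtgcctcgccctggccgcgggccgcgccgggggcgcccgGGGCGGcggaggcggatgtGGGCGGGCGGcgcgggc
Akt2, start 1: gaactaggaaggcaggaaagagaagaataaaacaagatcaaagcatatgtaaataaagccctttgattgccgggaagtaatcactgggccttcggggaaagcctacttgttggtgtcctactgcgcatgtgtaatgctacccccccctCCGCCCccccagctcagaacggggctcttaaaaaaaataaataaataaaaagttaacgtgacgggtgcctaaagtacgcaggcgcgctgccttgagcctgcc

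Irs2 and Irs1 shared an E-box next to an insulin response element core. In Irs2 the E-box began 44 bases and the core 37 bases upstream of the start, and in Irs1 they began 115 and 111 bases upstream, where the 2 matches overlap in the letters TG. Irs1 held a second core, 32 bases upstream. An E-box was found in 6.02% of all 32841 windows of this length, the insulin response element core in 5.56%, and both in 0.295%, a pair of motifs singled out after the sequences were seen. Start 1 of Akt1 held the forkhead core, found in 3.17% of windows, and start 2 held 4 Sp1 boxes, of which the last 2 overlap. The first window of Akt2 held 1 Sp1 box, a motif of 32.7% of windows, and the other 3 Akt2 windows, which are not printed, held no match. No window of the 6 genes held the CRE, found in 1.55%. A match is a description of letters and not a site in use.

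Of the 8 genes, 4 fell in CR-CD and 0 rose. Insr, Irs2, Akt1 and Slc2a4 were lower, by 2.15 to 3.92 times, and Igf1r, Irs1, Akt2 and Pdpk1 were not called. The study selected all 4 fallen genes as changed on these same arrays, so their direction here is not independent evidence. In CR-CD it also reported lower Irs2, Akt1 and Slc2a4 by real-time PCR and less IRS2 protein by Western blot. Insr was not among its PCR genes. The words rose and fell mark a limma adjusted p under 0.05 across the 22180 genes, which 1.48% of all genes received (0.699% lower and 0.784% higher in CR-CD). The median log2 fold change of the 8 genes was -0.58, against 0.0017 over all genes. The 8 genes were chosen with earlier results of these data known, so this median and the count of 4 are descriptions. The groups did not overlap in 4 of the 8 genes, against 11.4% of all genes. In a whole liver, fewer cells of a type and less RNA per cell cannot be told apart.

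**Figure D1:**
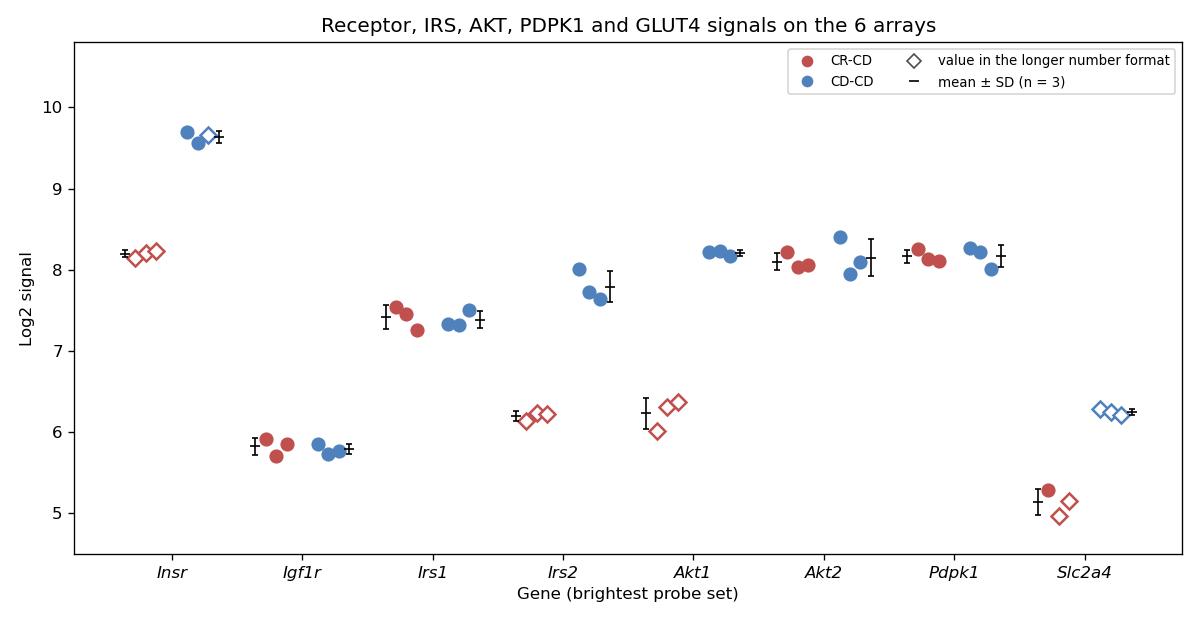
Log2 signal of the 8 genes on each array, CR-CD in red on the left of each gene and CD-CD in blue on the right, with mean ± SD (n = 3) beside the points. Open diamonds are values stored in the longer number format, which occur in Insr, Irs2, Akt1 and Slc2a4, the 4 genes whose groups do not overlap.

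The stored numbers of these 4 genes also differed in kind. Nearly all values of the table are the shortest decimal of a single-precision number, with at most 7 decimals in the 8 genes, whereas some are longer, with 9 decimals. Among the 48 values of the 8 genes, 11 CR-CD and 4 CD-CD values were in the longer format, all of them in Insr, Irs2, Akt1 and Slc2a4. The longer format was found in all 3 CR-CD values of Irs2 and of Akt1 and in none of their CD-CD values. In Insr it was found in 3 CR-CD values and 1 CD-CD value, and in Slc2a4 in 2 CR-CD and 3 CD-CD values. In 0 of these 4 genes did both groups hold a single-precision value, so no change can be computed for them from such values alone. Of all genes, 1.46% held a longer value. Among those 97.2% were called at the adjusted p, and among the other genes 0.0641% were called. The part of the number format in the results was not tested.

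Insr, the insulin receptor (probe set 17507057), measured 8.15, 8.20 and 8.23 on the CR-CD arrays and 9.69, 9.56 and 9.66 on the CD-CD arrays. Every CR-CD value lay below every CD-CD value, with a gap of 1.32 between the groups. The mean was 8.20 ± 0.04 in CR-CD and 9.64 ± 0.07 in CD-CD (SD, n = 3 each), for a log2 change of -1.44 with a standard error of 0.07 (limma adjusted p = 5.81e-05). Among all genes of its array, the Insr signal stood between the 85.2 and 86.9 percentile in CR-CD and between the 95 and 95.7 percentile in CD-CD. The receptor thus fell and stayed above the array median on all 6 arrays.

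Igf1r (probe set 17479099) measured 5.91, 5.71 and 5.85 in CR-CD and 5.86, 5.74 and 5.77 in CD-CD. These values overlapped and lay near the middle of the array, between the 46.7 and 53.1 percentile in CR-CD and between the 48.1 and 51.3 percentile in CD-CD. The log2 fold change was 0.04, with a 95% interval from -0.15 to 0.23 (limma adjusted p = 0.999), which leaves room for 0.90 to 1.17 times the CD-CD level. The difference between the 2 receptors on 1 array, Insr minus Igf1r, was 2.24, 2.49 and 2.38 in CR-CD and 3.83, 3.82 and 3.89 in CD-CD. It was lower by 1.48 on the log2 scale in CR-CD (standard error 0.08), an unequal change of the pair that was as large as any of the 10 splits of the arrays allows (exact permutation test, two-sided, p = 0.1, the smallest that 3 arrays against 3 can give).

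Irs2, an adaptor whose start region shares the E-box and insulin response element core with that of Irs1, measured 6.13, 6.24 and 6.23 in CR-CD (probe set 17507374). In CD-CD it measured 8.01, 7.73 and 7.64. The CR-CD values lay close together and 1.40 below the lowest CD-CD value, while CD-CD replicate 1 was the highest of its group. The mean was 6.20 ± 0.06 in CR-CD and 7.79 ± 0.19 in CD-CD (SD, n = 3 each), for a log2 change of -1.59 with a standard error of 0.11 (limma adjusted p = 0.000249). Its place among all genes was the 57.4 to 58.9 percentile in CR-CD and the 80.1 to 84.3 percentile in CD-CD. A probe set annotated to both Irs2 and 9530052E02Rik (17498951), described at the end, showed no such fall. Its log2 fold change was -0.07, and its groups overlapped.

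Irs1, the paralog adaptor (probe set 17224878), measured 7.55, 7.45 and 7.26 in CR-CD and 7.33, 7.32 and 7.51 in CD-CD. The groups overlapped, and the log2 fold change was 0.03, with a 95% interval from -0.20 to 0.26 (limma adjusted p = 0.999). A dimmer probe set of Irs1 (17214753) measured 5.61, 5.73 and 5.66 in CR-CD and 5.32, 5.47 and 5.59 in CD-CD. Its groups did not overlap, by a gap of 0.02, and its log2 fold change of 0.21 (95% interval from 0.0016 to 0.41) did not pass (limma adjusted p = 0.801, taken over every probe set). Neither probe set of Irs1 thus showed a fall like that of Irs2. Irs2 minus Irs1 was -1.41, -1.21 and -1.03 on the CR-CD arrays and 0.68, 0.41 and 0.14 on the CD-CD arrays. The signal of Irs2 was below that of Irs1 on every CR-CD array and above it on every CD-CD array. Because each probe set has its own affinity, the sign of such a difference does not rank the transcripts, and only its change between the groups is compared. The change was -1.63 (standard error 0.19, exact permutation test, two-sided, p = 0.1).

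Akt1 (probe set 17284201) measured 6.01, 6.32 and 6.37 in CR-CD and 8.22, 8.23 and 8.17 in CD-CD. The gap of 1.80 between the groups was the widest of the 8 genes, and CR-CD replicate 1 was the lowest of its group. The mean was 6.23 ± 0.19 in CR-CD and 8.20 ± 0.03 in CD-CD (SD, n = 3 each), for a log2 change of -1.97 with a standard error of 0.10 (limma adjusted p = 8.15e-05), or 3.92 times lower. Akt1 stood between the 55.1 and 61.5 percentile of all genes in CR-CD and between the 85.9 and 86.5 percentile in CD-CD.

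Akt2, the isoform known for glucose metabolism (probe set 17475640), measured 8.22, 8.03 and 8.06 in CR-CD and 8.41, 7.95 and 8.10 in CD-CD. The CR-CD values lay within the range of the CD-CD values. The log2 fold change was -0.05, with a 95% interval from -0.34 to 0.25 (limma adjusted p = 0.999), that is between 0.79 and 1.19 times the CD-CD level. Akt1 minus Akt2 was -2.21, -1.72 and -1.69 in CR-CD, against -0.19, 0.28 and 0.07 in CD-CD. The 2 probe sets had nearly the same signal on the CD-CD arrays and stood well apart on the CR-CD arrays. This difference was lower by 1.92 in CR-CD (standard error 0.22, exact permutation test, two-sided, p = 0.1), the largest of the 3 pairs compared. Adjusted over the 3 pairs, each p stayed at 0.1. In each pair only the gene that fell held values in the longer number format, and the part of the format was not tested.

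**Figure D2:**
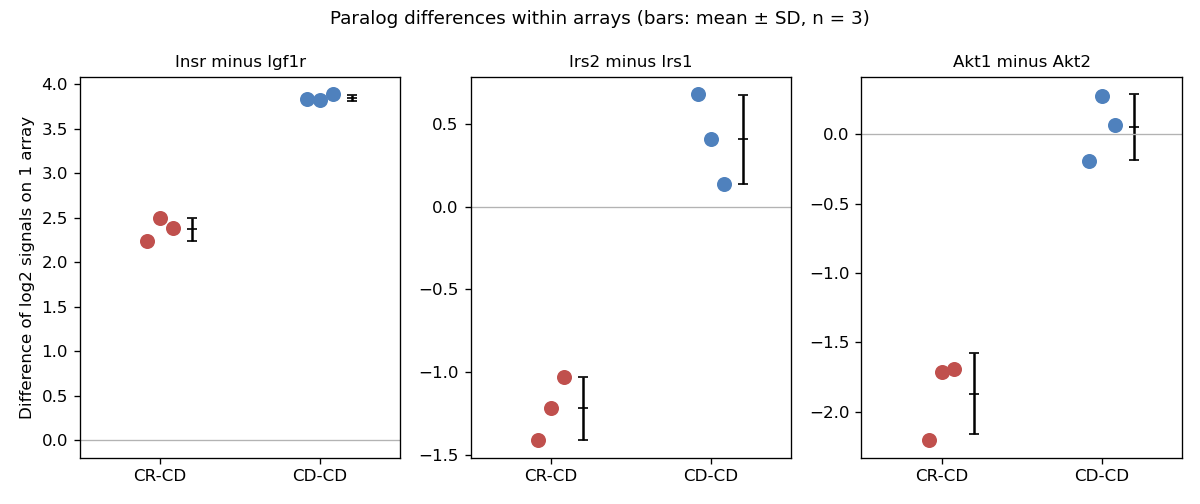
Difference of 2 log2 signals on the same array for Insr minus Igf1r, Irs2 minus Irs1 and Akt1 minus Akt2, CR-CD on the left and CD-CD on the right of each panel, with mean ± SD (n = 3). In each pair the CR-CD arrays lie below the CD-CD arrays without overlap, and the change was -1.48, -1.63 and -1.92. All 3 CR-CD values of Insr, Irs2 and Akt1 are in the longer number format, and no value of Igf1r, Irs1 or Akt2 is.

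Pdpk1, the kinase that phosphorylates both AKT isoforms (probe set 17341690), measured 8.26, 8.13 and 8.11 in CR-CD and 8.27, 8.22 and 8.01 in CD-CD. The groups overlapped, with means of 8.17 ± 0.08 in CR-CD and 8.17 ± 0.14 in CD-CD (SD, n = 3 each). The 95% interval of its log2 fold change ran from -0.22 to 0.22 (limma adjusted p = 1).

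Slc2a4, which encodes the glucose transporter that insulin moves to the cell surface (probe set 17265096), measured 5.29, 4.97 and 5.15 in CR-CD and 6.28, 6.24 and 6.21 in CD-CD. All 3 CR-CD values lay below the median of their array and all 3 CD-CD values above it, so the gene moved across the middle of the array, to the 23.8 to 36.3 percentile in CR-CD against the 58.9 to 60.1 percentile in CD-CD. The mean was 5.14 ± 0.16 in CR-CD and 6.25 ± 0.04 in CD-CD (SD, n = 3 each), for a log2 change of -1.11 with a standard error of 0.09 (limma adjusted p = 0.000794).

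**Figure D3:**
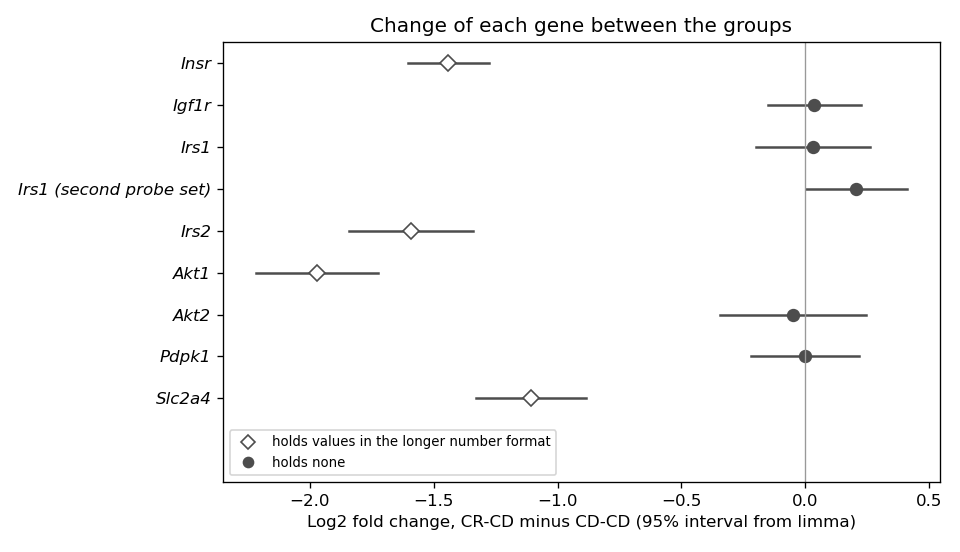
Log2 fold change of each gene, CR-CD minus CD-CD, with its 95% interval from limma, and of the second probe set of Irs1. Open diamonds, for Insr, Irs2, Akt1 and Slc2a4, hold values in the longer number format and lie between -1.97 and -1.11, while the other points lie between -0.05 and 0.21.

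Markers of other cells were read beside these results. The 7 hepatocyte markers (among them Alb and Cps1) lay above the array median on all 6 arrays, with a summed linear signal of 48157.6 to 53147.7 in CR-CD and 48260.7 to 53197.1 in CD-CD. For Slc2a4, the tissues of note are fat and muscle. The 5 measured adipocyte markers of 6 summed to 587.6 to 1207.5 in CR-CD and 516.2 to 1309.8 in CD-CD, Lep lying below the median on every array. The log2 values of these 5 ran from 5.06 to 10.1, so the brightest weighs most in the sum. The 6 skeletal muscle markers summed to 273.9 to 311.6 in CR-CD and 260.4 to 306.4 in CD-CD, with Myh4, Myh1 and Mylpf below the median on every array. Both sums overlapped between the groups, and 0 of these 11 markers were called. The 4 heart muscle markers summed to 228.2 to 233.2 in CR-CD and 216.2 to 219.7 in CD-CD, without overlap and with 0 called. The 5 markers of Kupffer cells, the macrophages of the liver, all had a higher mean in CR-CD, with sums of 1817.8 to 3052.9 in CR-CD and 1048.0 to 1550.0 in CD-CD, and 0 of 5 were called. Their part in the results was not tested. For endothelial, stellate, bile duct and pancreas markers the sums of the groups overlapped.

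Of 93 other genes of the insulin pathway, listed by role, 86 had a probe set. Of these, 5 fell, 2 rose and the other 79 stayed short of the threshold, so that 8.14% were called, against 1.48% of all genes. The role lists were chosen with earlier results of these data known, so this share is a description. The study had selected Foxo1, Pik3ca, Pck2, Pik3r3, Inpp5k and Tsc2 from the same arrays, so their directions are not independent evidence. It had also picked Socs2, Ptpn1 and G6pc. These 3 were not called, with log2 differences of 0.18 for Socs2, 0.34 for Ptpn1 and -0.25 for G6pc (limma adjusted p = 0.999, 0.835 and 0.959). Socs2 spread widely, at 5.78, 7.41 and 7.49 in CR-CD and 6.93, 6.66 and 6.56 in CD-CD. By real-time PCR, a separate measure, the study reported higher Socs2, Ptpn1, G6pc, Foxo1 and Pck2 and lower Pik3ca in CR-CD. Each of the 7 called genes contained longer values, as did 1 gene that was not called, Ptpn1. The median log2 fold change of the 86 genes was -0.04, against 0.0017 over all genes.

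By role, 0 of 3 measured ligands were called, Igf1 having the largest log2 fold change, -0.21 (limma adjusted p = 0.896). Ins1, also listed as a ligand, had no probe set that could be used here, so its change could not be read. The study listed Ins1 as changed on these arrays and reported it lower in CR-CD by real-time PCR. Of the other receptors, 0 of 2 were called, and Insrr and Igf2r both had a value of -0.10. Among the 12 adaptors 1 fell, Sh2b1, which binds the activated receptor, at 6.97, 6.92 and 6.9997 in CR-CD and 7.46, 7.56 and 7.86 in CD-CD. Its log2 fold change was -0.66 (standard error 0.11, limma adjusted p = 0.0366), and the call was lost when any CR-CD array or CD-CD replicate 2 was left out (limma adjusted p between 0.118 and 0.209). Gab1, another docking protein, had a value of -0.38 and did not pass (adjusted p = 0.636).

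Of 9 PI3-kinase genes 2 fell and 0 rose. Pik3ca, a catalytic subunit, changed in mean log2 signal by -0.89 (limma adjusted p = 0.00166), whereas its paralog Pik3cb had a log2 difference of -0.06 (adjusted p = 0.998). Pik3r3, a regulatory subunit, had a log2 difference of -0.79 (adjusted p = 0.018). Its signal was low, at 4.38, 4.72 and 4.76 in CR-CD and 5.36, 5.37 and 5.52 in CD-CD. The array medians were 5.48 to 5.54, so this fall was read near or below the middle of the array. Pik3r1, the regulatory subunit that most tissues use, was far brighter, with means of 9.57 in CR-CD and 9.42 in CD-CD. Its log2 difference was 0.15 (adjusted p = 0.948). The call of Pik3r3 was lost when CR-CD replicate 2, CD-CD replicate 2 or CD-CD replicate 3 was left out (limma adjusted p between 0.062 and 0.109). The unequal change of these paralogs was not tested.

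Of 9 measured genes next to AKT, such as Mtor and Rictor of the kinase complex that phosphorylates AKT, 0 were called at the adjusted p and 0 had an unadjusted p under 0.05 from limma. Sgk1 had the largest value, -0.16. Of 13 measured AKT targets 1 rose and 1 fell. Foxo1, a transcription factor that AKT keeps out of the nucleus, measured 10.4, 10.3 and 10.3 in CR-CD and 8.52, 8.34 and 8.36 in CD-CD, for a log2 change of 1.91 with a standard error of 0.08 (limma adjusted p = 2.99e-05). Its brightest probe set held the longer values, and a dimmer one without them gave 0.02 (limma adjusted p = 1). The paralogs Foxo3, Foxo4 and Foxo6 had values of 0.06, 0.08 and 0.01 and were not called. Tsc2, an inhibitor of mTORC1 that AKT phosphorylates, changed in mean log2 signal by -0.82 (adjusted p = 0.0018), against -0.10 for its partner Tsc1 (adjusted p = 0.985).

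Among 17 measured inhibitors 1 fell and 0 rose. Inpp5k, a phosphatase that removes the lipid product of PI3-kinase, measured 5.74, 5.96 and 5.36 in CR-CD and 7.68, 7.76 and 7.67 in CD-CD, for a log2 change of -2.02 with a standard error of 0.15 (limma adjusted p = 0.000383). Of the 10 other hexose carriers 0 were called at the adjusted p, and 0 had an unadjusted p under 0.05 from limma. Slc2a2, which encodes GLUT2, the main glucose carrier of hepatocytes, measured 11.6, 11.8 and 11.9 in CR-CD and 10.3, 12.0 and 11.8 in CD-CD. CD-CD replicate 1 stood apart in that gene, and its log2 fold change of 0.43 (adjusted p = 0.953) did not pass. The study reported less GLUT2 protein in CR-CD by Western blot, which is not a measure of RNA.

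**Figure D4:**
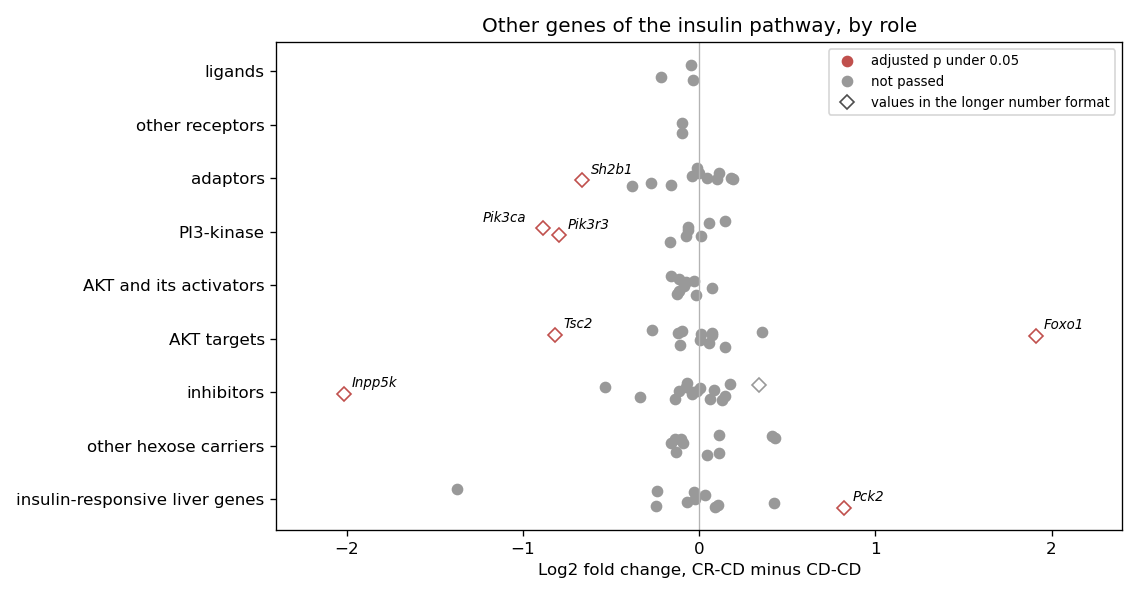
Log2 fold change, CR-CD minus CD-CD, of the 86 other insulin pathway genes, 1 point a gene, by role. Red points passed the adjusted p (Foxo1 and Pck2 higher, Inpp5k, Pik3ca, Tsc2, Pik3r3 and Sh2b1 lower), and open diamonds hold values in the longer number format.

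The genes whose pattern over the 6 arrays was most like each of the 8 were taken by Pearson correlation, as a description. For Insr they were Zyx (0.9995), Slc27a6 (0.9984) and Layn (0.9982), and for Irs2 they were Sec31a (0.9978), Mbd6 (0.9960) and Crebbp (0.9958). For Akt1 they were Mss51 (0.9990), Apcdd1 (0.9990) and Spata13 (0.9989), and for Slc2a4 they were Ints5 (0.9992), Lrrc58 (0.9979) and Tsc2 (0.9976). These 12 genes were lower in CR-CD, which sets most of the likeness. Of the 12, 11 held values in the longer number format, Mbd6 being the exception. Among all 329 called genes, 315 held such values. Akt2 was most like Fpgs (0.9982), Pdpk1 like Lnx2 (0.9979), Igf1r like Ppp1r14b (0.9960) and Irs1 like Raly (0.9894). Of the 12 genes most like these 4, 0 held longer values and 0 were called, against 1.46% and 1.48% of all genes. Likeness was taken over the same 6 arrays, so whether the like genes were called followed largely from the choice.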

How the data were processed

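Affymetrix Mouse Gene 2.0 ST arrays measured liver RNA. The deposited table holds log2 signals, between 3.63 and 13.9, which the authors normalized in GeneSpring. The summarization of probes and the genome build are not given in the sources used here. The table held 33793 probe sets on 6 arrays, 0 missing values and 0 unused columns, with array medians from 5.48 to 5.54, and the number of arrays limits precision. The platform annotation gave 1 symbol to 23521 probe sets and several to 1820, and left 8452 unnamed.

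The comparison of CR-CD with CD-CD used lmFit and eBayes of limma 3.58.1 (R 4.3.3), with no trend. There were 4 residual degrees of freedom and 2.98 from the prior, and p-values had Benjamini-Hochberg adjustment over 22180 genes, after the fit was tested on simulated data. Paralog differences were compared with exact permutation tests. The 8 genes, the role lists and the markers were chosen with earlier results of these data known. Named genes were the 8, the called genes of each role or, with none, the largest change, and the 3 most alike. Other names were chosen after their values were seen.

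Deviations from the group mean correlated across genes at 0.407, 0.208 and 0.201 for arrays of the same replicate number, each above the limit of 0.1, so a fit with that block was run. Arrays of unlike number correlated at -0.348 to 0.261, and 2 of those pairs also passed the limit, CR-CD replicate 3 with CD-CD replicate 2 (0.261) and CR-CD replicate 2 with CD-CD replicate 3 (0.107). The pairing rests on these correlations and on no label. The other alternatives were quantile normalization, median centring, the methods' t-test, limma with a trend and robust variances, keeping genes above the 40th percentile by mean, the mean of the probe sets of a gene, all probe sets, leaving out probe sets in the longer number format, and leaving out each array. The same count by 9 or more decimals was added after seeing the data. Python 3.11.15 with numpy 2.4.6, pandas 2.3.3, scipy 1.17.1 and matplotlib 3.10.9 made tables and figures.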

Additional observations from a re-analysis of the deposited data

How the results depend on the processing

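Insr, Irs2, Akt1 and Slc2a4 stayed lower in CR-CD and past the threshold under each of the 15 alternatives that gave a value, with log2 fold changes of -1.48 to -1.41 for Insr, -1.67 to -1.49 for Irs2, -2.04 to -1.86 for Akt1 and -1.19 to -1.02 for Slc2a4. Without probe sets in the longer number format these 4 genes have no value, limma called 0 of 21878 genes (1091 before adjustment, at p under 0.05), and it called 0 of 79 other pathway genes (3 before adjustment). The values near 0 changed sign. Leaving out 1 array gave -0.0074 to 0.0943 for Igf1r, -0.031 to 0.11 for Irs1, -0.15 to 0.078 for Akt2 and -0.0799 to 0.0517 for Pdpk1, and quantile normalization gave 0.0067 for Pdpk1, none of them called. The cause was not tested. With 1 array left out, the 3 paralog differences were -1.54 to -1.41 for the receptors, -1.76 to -1.49 for the IRS pair and -2.04 to -1.76 for the AKT pair. Their sign was the same under every alternative run, which says little. As the groups did not overlap in any pair, leaving out 1 array could not turn the sign, and median centring cancels within an array. Without probe sets in the longer number format no pair could be compared, because Insr, Irs2 and Akt1 have no value there. With the replicate block, 339 genes passed against 329, the 8 genes kept their side of the threshold, and the paralog differences had p = 0.25 (exact sign permutation over the 3 pairs of arrays, the smallest possible). Among the other pathway genes the block changed 1 call, that of Igfbp1. Of the 7 called pathway genes, 4 passed by the methods' t-test with Benjamini-Hochberg adjustment, while among all 86 other pathway genes the number called with 1 array left out was 4 to 8, 4 when CR-CD replicate 2 was dropped and 8 when CD-CD replicate 1 was. By 9 or more decimals the count of genes with longer values was again 4.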

Other observations

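The last role was listed as insulin-responsive liver genes, and that label was not checked for each gene. Of its 11 measured genes, 1 was called. Pck2, a mitochondrial enzyme of gluconeogenesis, was higher by 0.82 in log2 signal in CR-CD, with a standard error of 0.11 (limma adjusted p = 0.0121, n = 3 each), with its 3 CD-CD values in the longer number format. Its call was lost when CR-CD replicate 2, CR-CD replicate 3 or CD-CD replicate 3 was left out (limma adjusted p between 0.0742 and 0.085). Pck1, its cytosolic paralog, had a log2 difference of -0.07 (adjusted p = 0.999), and G6pc, the last enzyme of the pathway, one of -0.25 (adjusted p = 0.959). Igfbp1, a secreted binding protein of insulin-like growth factors that FOXO factors are known to induce, measured 9.08, 7.25 and 7.38 in CR-CD and 10.76, 8.65 and 8.44 in CD-CD. Replicate 1 was the highest array of each group, and CR-CD was lower at each replicate number. Its log2 fold change of -1.38 (standard error 0.72) did not pass (limma adjusted p = 0.847), and with the replicate number as a block it did (limma adjusted p = 0.0046), a pairing that rests on the data alone, where CR-CD replicate 3 correlated more with CD-CD replicate 2 (0.261) than with CD-CD replicate 3 (0.201). Its 6 values were single-precision numbers.

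A probe set annotated to both Irs2 and 9530052E02Rik (17498951) was not counted as Irs2. It measured 5.78, 5.97 and 5.71 in CR-CD and 5.76, 5.997 and 5.92 in CD-CD, all single-precision numbers, with a log2 fold change of -0.07 (95% interval from -0.30 to 0.16, limma adjusted p = 0.992, taken over every probe set). It was named after its values were seen.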
